A study of Mus musculus with 32 samples.

Results

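Chemokines are small secreted or membrane-bound proteins that attract leukocytes, and 10 of them were followed in NSCs (neural stem cells) treated with interferon-β (IFN-β). The genes were Cxcl9, Cxcl10, Cxcl11, Cxcl1, Ccl2, Ccl5, Ccl7, Ccl12, Cx3cl1 and Cxcl16. They were chosen by name as chemokines known from interferon and inflammatory responses, with earlier results of these data known. All 10 had a row among the 23035 genes of the footprint tables. The cells came from the ventricular-subventricular zone of male C57BL/6 mice 8 to 12 weeks old, were grown as cultures without a sort, and received IFN-β or its vehicle, BSA in PBS, 48 h after seeding. Exposure lasted 2 h or 14 h, and cycloheximide, which halts ribosomes on their mRNAs, was added to all groups before lysis. Each of the 4 groups (vehicle 2 h, IFN-β 2 h, vehicle 14 h and IFN-β 14 h) held 4 cultures. Each culture gave a footprint library, the fragments of mRNA that ribosomes protect in coding sequences (CDS), and a total RNA library, 32 libraries in all. The 2 h cultures carry the numbers 2, 3, 5 and 6 and those of 14 h the numbers 1 to 4, so exposure time and set of cultures cannot be told apart in any comparison between times. By the study's general statement on replicates, cultures came from different mice.

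IFN-β signals through its receptor to transcription factors that bind interferon-stimulated response elements (ISREs) near target genes. A different interferon element is named GAS, and several chemokine genes also respond to NF-κB. The chemokines fall into groups by the receptor they use. Cxcl9, Cxcl10 and Cxcl11 act on Cxcr3 of activated T cells and natural killer cells, while Ccl2, Ccl7 and Ccl12 act on Ccr2 of monocytes. Ccl5 draws T cells and monocytes and Cxcl1 draws neutrophils through Cxcr2. Cx3cl1, the ligand of Cx3cr1 on microglia, and Cxcl16, the ligand of Cxcr6, are made as membrane proteins and shed by the proteases Adam10 and Adam17.

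Footprint libraries held 2956297 to 10505108 counts and total RNA libraries 1370008 to 7877753. All 10 neural stem cell markers examined, Nes and Sox2 among them, had footprints, and their summed level was 10820 to 18232 CPM (counts per 1000000 of a library's total, with library sizes scaled by TMM). At 14 h, 4 of the 10 were called lower with IFN-β and 0 higher (adjusted p under 0.05 in edgeR), beside 26.3% and 26.2% of 12113 genes. At 2 h, 10 microglia markers summed to 11.9 to 34.6 CPM in vehicle cultures and 15.7 to 38.5 CPM in treated ones, and at 14 h to 36.9 to 41.6 CPM and 40.3 to 45.4 CPM. Of these, Aif1, Cx3cr1, Trem2 and C1qa were at 0 in all 16 footprint libraries. Only 2 had enough footprints for a test at 14 h. There P2ry12 was called higher with IFN-β (log2 change 1.62, adjusted p = 5.84e-07 in edgeR) and Itgam lower (-0.75, adjusted p = 1.2e-05). In total RNA at 14 h P2ry12 was called lower (-1.03, adjusted p = 0.013 in edgeR), beside 213 of 7520 genes. For 8 endothelial markers the sums were 12.9 to 24.5 CPM (vehicle) and 21.1 to 43.3 CPM (IFN-β) at 2 h, and 15.2 to 19.9 CPM and 17.8 to 22.3 CPM at 14 h. Of 4 endothelial markers tested in footprints at 14 h, Tek alone was called higher (log2 change 0.84, adjusted p = 0.00102 in edgeR) and 0 lower. The part of these cells in the chemokine results was not tested. At 2 h both footprint cultures numbered 3 stood apart from the rest of their groups, deviating together (r = 0.81 over genes). Results of the 2 h set are therefore also given without them where they move. In bulk cultures, fewer cells of a type and less RNA per cell cannot be told apart. CPM is a share of a library's footprints, so a change in the amount of translation per cell was not measured.

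Promoter windows from RefSeq (GRCm38) were at hand for 5 of the 10 genes, Cxcl9, Cxcl10, Cxcl1, Ccl12 and Cx3cl1. The 250 bases before the start are shown for 2 chemokines that rose with IFN-β at 14 h, Cxcl10 on the minus strand at chr5:92348890-92349139 and Ccl12 on the plus strand at chr11:82101595-82101844. Capitals mark, in order along Cxcl10, 1 ISRE core and 2 NF-κB motifs, and Ccl12 has no capitals because it held no match.
Cxcl10: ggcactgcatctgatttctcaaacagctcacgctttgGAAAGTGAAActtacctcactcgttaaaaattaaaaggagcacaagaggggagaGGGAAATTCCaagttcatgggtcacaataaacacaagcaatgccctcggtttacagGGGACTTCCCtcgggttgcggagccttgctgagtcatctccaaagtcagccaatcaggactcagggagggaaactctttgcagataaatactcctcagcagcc
Ccl12: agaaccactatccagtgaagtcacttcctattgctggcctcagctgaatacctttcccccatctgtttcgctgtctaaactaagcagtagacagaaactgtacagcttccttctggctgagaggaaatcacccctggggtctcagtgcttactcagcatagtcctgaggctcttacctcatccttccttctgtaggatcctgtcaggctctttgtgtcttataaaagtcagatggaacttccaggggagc
The ISRE core was searched as GAAANNGAAA, GAS as TTCNNNGAA and the NF-κB motif by its name, on both strands of windows from 250 bases before to 50 bases after each start. The ISRE core of Cxcl10 lay at bases -213 to -204 and its NF-κB motifs at -159 to -150 and -103 to -94, all on the strand of the gene, and no motif overlapped another. Of 32851 such windows, 3.44% held an ISRE core, 4.51% an NF-κB motif and 8.3% a GAS. The window of Cxcl1 held 2 overlapping NF-κB matches, at -71 to -62 and, on the other strand, -70 to -61. The windows of Cxcl9, Ccl12 and Cx3cl1 held none of the 3 motifs, which says only that these letters are not in those windows.

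Because the CC chemokines are related, the CDS letters of the GENCODE M21 transcripts were checked for stretches that a footprint could share. None of the windows of 28 bases of any of the 10 genes occurred exactly in another gene. With up to 2 mismatches to another chemokine the share was 3.16% for Ccl12 and 1.2% for Ccl2, both against Ccl11, 7.66% for Cxcl1 against Cxcl2 and Cxcl3, and 0.0864% for Cx3cl1. The longest identical stretches of the CC genes with Ccl11 are shown because they bear on which gene a footprint is counted for, and they fall at the same site of both genes.
Ccl12 bases 214 to 234, Ccl11 bases 211 to 231: gagatctgtgctgaccccaag
Ccl2 bases 221 to 240, Ccl11 bases 215 to 234: tctgtgctgaccccaagaag
Positions count from the first base of each CDS. These stretches of 21 and 20 bases are shorter than the window of 28 bases, and Cxcl10 shared no more than 10 bases in a row with any other chemokine. Reads shorter than the window were not checked, and one lying wholly within such a stretch could not be told apart between the genes.

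Of the Cxcr3 ligands, Cxcl10 was by far the most translated. At 2 h its footprint counts with vehicle were 148, 127, 166 and 129 (15.7, 17.8, 22 and 17.8 CPM). With IFN-β they were 11792, 15178, 17557 and 10160 (1490, 3103, 2451 and 1686 CPM). The groups lay far apart, and each IFN-β culture was 94.7 to 175 times the vehicle culture of its number. The change at 2 h was 6.90 on the log2 scale (SE 0.24, adjusted p = 1.19e-06 in edgeR), and 6.68 without both cultures numbered 3. At 14 h the vehicle cultures held 2, 5, 10 and 7 footprints of Cxcl10 (0.359, 0.499, 1.24 and 0.665 CPM). The IFN-β cultures held 959, 2913, 3920 and 5250 (322, 417, 581 and 564 CPM). The groups were again far apart, with ratios of 469 to 898 between cultures of one number, and both groups lay below their counterparts at 2 h. The log2 change at 14 h was 9.36 (SE 0.58, adjusted p = 1.78e-11 in edgeR), a test Cxcl10 entered through its IFN-β cultures.

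Per kilobase of CDS, the mean footprint level of Cxcl10 in IFN-β cultures at 2 h was 7398 CPM, rank 3 of 15105 protein-coding genes with counts. It was 1597 CPM per kilobase with IFN-β at 14 h, rank 32 of 15739. With vehicle the same measure was 62.1 at 2 h, rank 2713 of 15135, and 2.34 at 14 h, rank 10676 of 15850. Cxcl10 thus stood among the most translated genes of the treated cultures at both times, while untreated cultures placed it above the median gene at 2 h and below it at 14 h (median 12.4 and 10.7 CPM per kilobase). In treated cultures Cxcl10 made up 86.1% to 95.5% of all footprints of the 10 chemokines at 2 h and 65.6% to 75.6% at 14 h. With vehicle its share was 7.76% to 9.72% at 2 h and 0.301% to 1.06% at 14 h.

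Cxcl9, which lies in the same stretch of 44139 bases of chromosome 5 as Cxcl10 and Cxcl11, had few footprints. It had 0, 1, 0 and 0 with vehicle and 2, 0, 1 and 2 with IFN-β at 2 h, and 0 in all vehicle cultures and 2, 6, 10 and 5 with IFN-β at 14 h. All 4 IFN-β cultures at 14 h, at 0.888 ± 0.418 CPM (SD, n = 4), were above the vehicle cultures. The summed level with IFN-β at 14 h was 10.1 times a floor of 3 counts over the vehicle group. At 2 h the ratio was 6.03 with a 95% counting interval of 0.675 to 285. Cxcl11, which the annotation lists as a polymorphic pseudogene, had 1, 3, 1 and 2 footprints with IFN-β at 2 h and was at 0 elsewhere. The summed level of Cxcl11 with IFN-β at 2 h was 2.81 times the floor of the vehicle group. Neither gene reached the minimum for the test, 10 counts in 4 libraries. A floor bounds only the group without counts and takes the treated counts as observed. Floors and intervals of this kind reflect counting error alone.

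**Figure D1:**
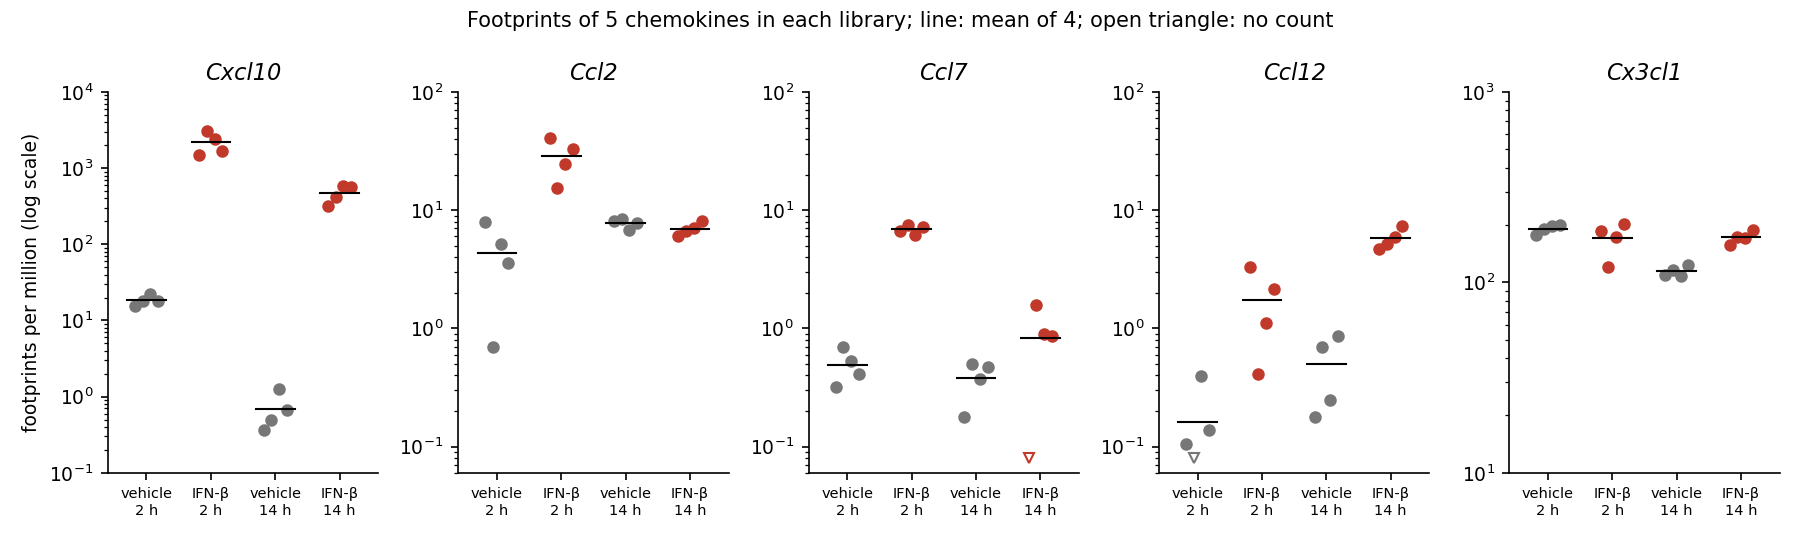
Footprint level (CPM, log axis) of Cxcl10, Ccl2, Ccl7, Ccl12 and Cx3cl1 in the 16 footprint libraries. Points are cultures, lines are group means and open triangles are cultures without a count. Cxcl10 lies between 1490 and 3103 CPM with IFN-β at 2 h and between 322 and 581 CPM at 14 h, Ccl2 and Ccl7 are high with IFN-β at 2 h, and Ccl12 is high with IFN-β at 14 h.

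The Ccr2 ligands had their higher treated levels at different times. Ccl2 counts at 2 h were 74, 5, 39 and 26 with vehicle (7.87, 0.7, 5.17 and 3.58 CPM). With IFN-β they were 325, 75, 178 and 199 (41.1, 15.3, 24.8 and 33 CPM). The groups did not overlap, although culture 3 was the lowest in both, and the ratio within a number ran from 4.81 to 21.9. The log2 change at 2 h was 2.69 (SE 0.50, adjusted p = 0.0102 in edgeR), and 2.54 without both cultures numbered 3 (adjusted p = 1.86e-05). At 14 h Ccl2 counts were 45, 84, 55 and 82 with vehicle (8.08, 8.38, 6.81 and 7.79 CPM) and 18, 47, 48 and 75 with IFN-β (6.05, 6.73, 7.12 and 8.05 CPM). These groups overlapped, with 2 IFN-β cultures above and 2 below the vehicle culture of their number. The log2 change at 14 h was -0.12 (SE 0.14, adjusted p = 0.509).

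Ccl7, which attracts monocytes, had 3, 5, 4 and 3 footprints with vehicle (0.319, 0.7, 0.53 and 0.413 CPM) and 53, 37, 44 and 43 with IFN-β (6.7, 7.56, 6.14 and 7.14 CPM) at 2 h. The groups were far apart and the IFN-β cultures lay close together. Its log2 change at 2 h was 3.79 (SE 0.28, adjusted p = 1.45e-05 in edgeR), a test Ccl7 entered only through the counts of its IFN-β cultures. At 14 h its counts were 1, 5, 3 and 5 with vehicle and 0, 11, 6 and 8 with IFN-β, too few for the test. The ratio of the summed levels at 14 h was 2.35 with a 95% counting interval of 1.17 to 4.88, and the IFN-β cultures ranged from 0 to 1.58 CPM and overlapped the vehicle cultures.

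Ccl12, a mouse chemokine close to Ccl2, had its higher treated level at 14 h. At 2 h its counts were 1, 0, 3 and 1 with vehicle (0.106, 0, 0.397 and 0.138 CPM) and 26, 2, 8 and 13 with IFN-β (3.29, 0.409, 1.12 and 2.16 CPM). Every IFN-β culture was above every vehicle culture, the lowest of them by a narrow margin, and the summed levels had a ratio of 11.8 with a 95% counting interval of 4.74 to 38. At 14 h its counts were 1, 7, 2 and 9 with vehicle (0.179, 0.699, 0.248 and 0.855 CPM) and 14, 36, 40 and 68 with IFN-β (4.7, 5.16, 5.93 and 7.3 CPM). The groups did not overlap, and each IFN-β culture was 7.38 to 26.2 times the vehicle culture of its number. The log2 change of Ccl12 at 14 h was 3.39 (SE 0.39, adjusted p = 1.45e-06 in edgeR), again a test entered only through the IFN-β cultures. Ccl5, the T cell and monocyte chemokine, had 1 footprint with vehicle at 2 h and 3 with IFN-β at 14 h in all 16 libraries. Cxcl1, the neutrophil chemokine, had 3 footprints in all, 1 in each of 3 groups, and no more than 1 in a library.

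Cx3cl1 was the chemokine with the most footprints in vehicle cultures. Its level at 2 h was 178, 191, 197 and 200 CPM with vehicle and 187, 121, 174 and 203 CPM with IFN-β. The groups overlapped and culture 3 was the low one among the IFN-β cultures. The log2 change at 2 h was -0.16 (SE 0.15, adjusted p = 0.707 in edgeR), and -0.03 without both cultures numbered 3. At 14 h the level of Cx3cl1 was 110, 116, 108 and 123 CPM with vehicle and 157, 173, 171 and 188 CPM with IFN-β. The groups did not overlap, and ratios within a number were 1.42 to 1.59. The log2 change at 14 h was 0.59 (SE 0.07, adjusted p = 9.62e-06), far smaller than that of Cxcl10 in the same fit. Per kilobase of CDS the mean level of Cx3cl1 was 146 CPM with vehicle at 2 h, 86.9 with vehicle at 14 h and 130 and 131 with IFN-β at 2 h and 14 h.

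Cxcl16, the other membrane-bound chemokine, had 5, 8, 6 and 6 footprints with vehicle and 13, 5, 8 and 3 with IFN-β at 2 h. At 14 h it had 3, 2, 2 and 3 with vehicle and 2, 5, 9 and 7 with IFN-β. The ratio of the summed levels was 1.4 at 2 h and 3.02 at 14 h, with 95% counting intervals of 0.791 to 2.49 and 1.38 to 7.11. Cxcl16 was under the minimum for the test at both times.

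At 2 h, 4 of the 10 chemokines were tested in footprints and 3 were called higher with IFN-β (Cxcl10, Ccl7 and Ccl2) at an adjusted p under 0.05, beside 5.25% of the 12104 genes tested called higher and 2.01% called lower. At 14 h, 4 were tested and 3 were called higher (Cxcl10, Ccl12 and Cx3cl1), beside 26.2% of 12113 genes called higher and 26.3% called lower. These fits did not use the pairing by culture number. With that number as a block, 1920 genes were called higher at 2 h in place of 635, and 3856 at 14 h in place of 3176. At each time 3 of the chemokines were called higher there too. The median log2 change of the tested chemokines without the block was 3.24 at 2 h and 1.99 at 14 h. Ccl7 at 2 h and Ccl12 and Cxcl10 at 14 h passed the filter through their IFN-β cultures, which favours high values. These counts and medians therefore describe only the genes tested. The 10 were chosen with earlier results of these data known, so the counts are not independent support.

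**Figure D2:**
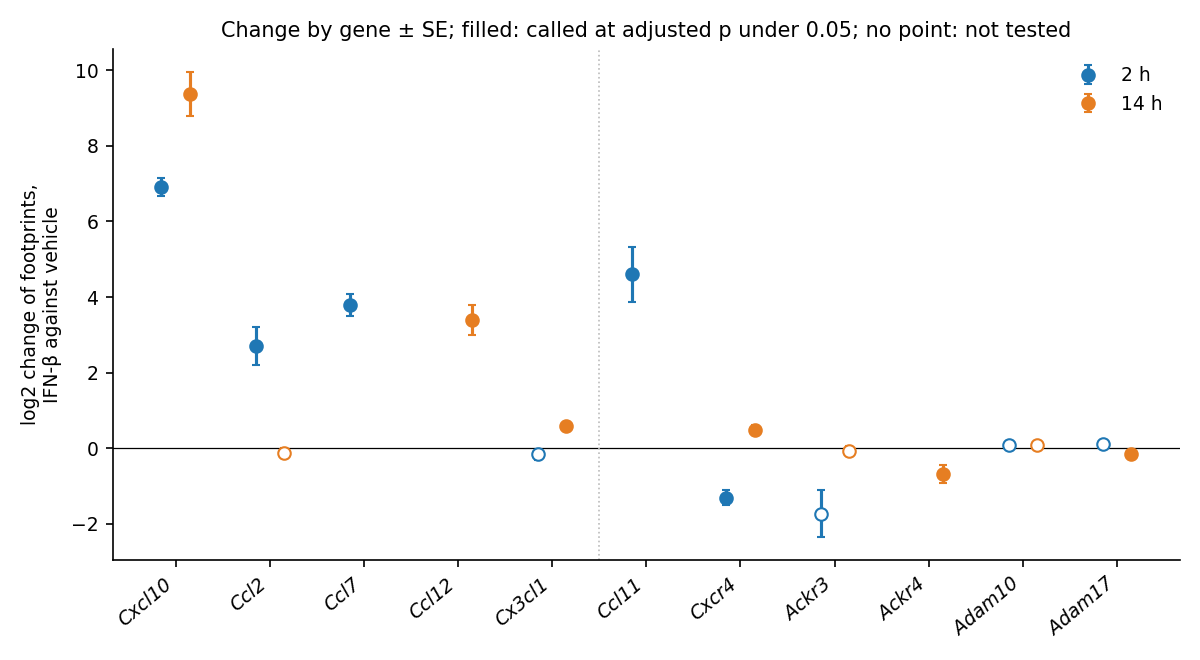
Log2 change in footprints with IFN-β against vehicle, with its SE, at 2 h (blue) and 14 h (orange) for 5 of the chemokines, left of the dotted line, and for Ccl11, 3 receptors and 2 proteases. Filled points passed an adjusted p under 0.05 and a missing point was not tested. Cxcl10 has the highest points, 6.90 and 9.36, and Ccl2 falls from 2.69 to -0.12.

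The difference between the changes at 14 h and 2 h was tested over all 16 footprint libraries, where 15.4% of 12508 genes were called with a higher and 15.5% with a lower change at 14 h. Of the 5 chemokines tested, Cxcl10 and Cx3cl1 had the higher change at 14 h and Ccl2 and Ccl7 the lower. The difference on the log2 scale was 2.46 for Cxcl10 (SE 0.56, adjusted p = 0.00143 in edgeR) and 0.76 for Cx3cl1 (SE 0.17, adjusted p = 0.00269). It was -2.81 for Ccl2 (SE 0.55, adjusted p = 0.00104) and -2.60 for Ccl7 (SE 0.63, adjusted p = 0.00547). Ccl7 and Ccl12 entered this fit only through counts of IFN-β cultures. For Ccl12 it was 0.01 with an SE of 1.03 (adjusted p = 0.965), an interval too wide to give its direction.

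The change and the level of Cxcl10 moved in opposite directions between the times. Its mean level with IFN-β was 2182 ± 740 CPM at 2 h and 471 ± 123 CPM at 14 h (SD, n = 4), so that the late level was 21.6% of the early one. With vehicle it was 18.3 ± 2.63 CPM at 2 h and 0.69 ± 0.386 CPM at 14 h, a mean 26.5-fold higher at 2 h. Between times neither the IFN-β cultures nor the vehicle cultures overlapped. On the log2 scale the level of Cxcl10 differed between 14 h and 2 h by -2.21 with IFN-β (SE 0.22, adjusted p = 6.84e-07 in edgeR) and by -4.67 with vehicle (SE 0.52, adjusted p = 9.63e-07). The larger change at 14 h therefore came with a lower level in treated cultures and a still lower one in controls, and the 2 contrasts use the same libraries as the changes.

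The other chemokines split in how the treated level differed between times. In IFN-β cultures Ccl2 was 28.6 ± 11 CPM at 2 h and 6.99 ± 0.836 at 14 h, and Ccl7 was 6.88 ± 0.608 and 0.831 ± 0.645 (SD, n = 4). The late level was 24.5% of the early one for Ccl2 and 12.1% for Ccl7, with log2 differences of -2.02 (SE 0.37, adjusted p = 0.000266 in edgeR) and -2.84 (SE 0.35, adjusted p = 2.4e-06). Ccl12 was higher late, at 1.74 ± 1.25 CPM at 2 h and 5.77 ± 1.14 at 14 h, a log2 difference of 1.68 (SE 0.42, adjusted p = 0.00275). The filter was again met by Ccl7 and Ccl12 only in treated cultures. The treated level of Cx3cl1 was 171 ± 35.7 CPM and 172 ± 12.9 CPM, with a log2 difference of 0.01 (SE 0.12, adjusted p = 0.956). Of the 5 tested in IFN-β cultures, 1 was called higher at 14 h and 3 lower, beside 25.4% and 25% of 12508 genes.

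In vehicle cultures 2 of the 5 were called lower at 14 h, Cxcl10 and Cx3cl1, and none higher, beside 16.9% and 16.5% of genes. The vehicle level of Cx3cl1 was 192 ± 9.91 CPM at 2 h and 114 ± 6.76 at 14 h, a log2 difference of -0.75 (SE 0.12, adjusted p = 0.000261 in edgeR). Ccl2 had a vehicle difference of 0.80 on the log2 scale (SE 0.40, adjusted p = 0.13), which passed the test only without vehicle culture 2 of the 2 h set (1.27, adjusted p = 0.0274). The vehicle differences of Ccl12 and Ccl7 were 1.67 (SE 0.94, adjusted p = 0.124) and -0.24 (SE 0.52, adjusted p = 0.764). The higher change of Cx3cl1 at 14 h thus went with a lower vehicle level beside a like IFN-β level.

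**Figure D3:**
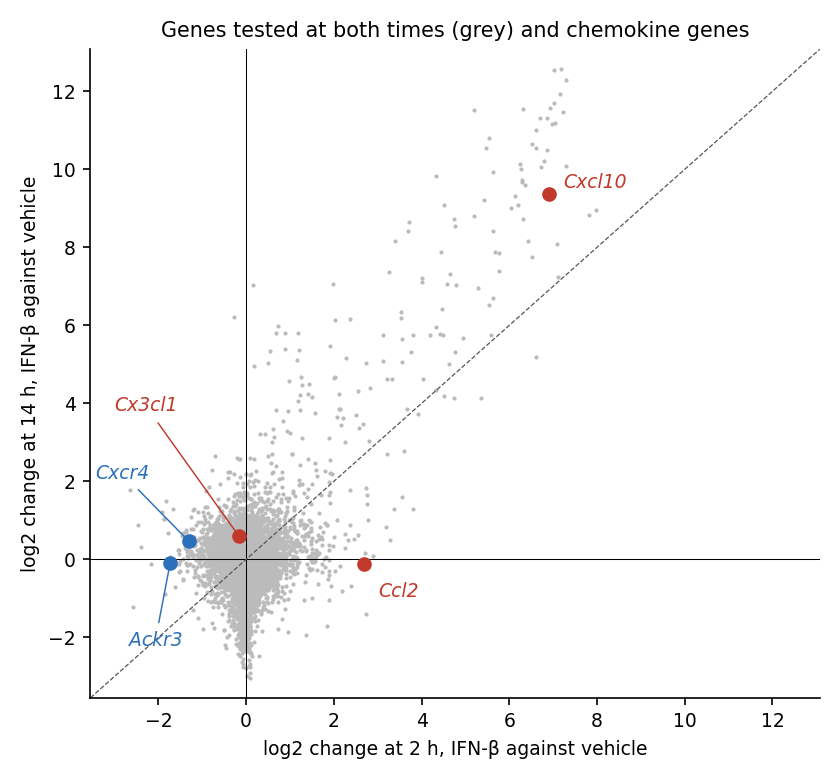
Log2 change in footprints at 14 h against that at 2 h for all genes tested at both times (grey), with Cxcl10, Ccl2 and Cx3cl1 in red and Cxcr4 and Ackr3 in blue. The dashed line marks equal changes. Cxcl10 lies above the line at 6.90 and 9.36, Cx3cl1 above it at -0.16 and 0.59, and Ccl2 below it at 2.69 and -0.12.

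The neighbouring CC chemokine genes, Ccl2, Ccl7, Ccl11, Ccl12 and Ccl8, lie in that order on the plus strand within 81229 bases of chromosome 11 (GRCm38). Ccl11, the eosinophil chemokine, had 5, 0, 0 and 1 footprints with vehicle and 36, 25, 40 and 28 with IFN-β at 2 h. At 14 h it had 0, 1, 0 and 3 with vehicle and 5, 5, 8 and 12 with IFN-β. In both sets the groups did not overlap, and the treated level was 4.97 ± 0.475 CPM at 2 h and 1.22 ± 0.396 at 14 h. The log2 change of Ccl11 at 2 h was 4.60 (SE 0.73, adjusted p = 0.000731 in edgeR), and its treated level differed by -2.08 between 14 h and 2 h (SE 0.41, adjusted p = 0.000393). Ccl11 entered both tests only through counts of IFN-β cultures. Ccl8, a monocyte chemokine, had 0, 1, 0 and 0 footprints with vehicle and 10, 1, 0 and 4 with IFN-β at 2 h, and none with vehicle and 2, 18, 24 and 47 with IFN-β at 14 h. The summed level of Ccl8 with IFN-β at 14 h was 39.9 times the floor of 3 counts over the vehicle group. The treated level of Ccl8 differed between the times by 2.48 on the log2 scale (adjusted p = 0.00521), with no SE that could be estimated. Its treated cultures ranged from 0 to 1.26 CPM at 2 h and from 0.672 to 5.05 CPM at 14 h and overlapped, and it entered the fit only through counts of IFN-β cultures.

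Along this interval the 3 genes nearest the Ccl2 start had their higher treated level at 2 h and the 2 farthest from it at 14 h. Late treated levels were 24.5%, 12.1% and 24.5% of the early ones for Ccl2, Ccl7 and Ccl11, and 331% and 556% for Ccl12 and Ccl8. The order was seen in the data and not tested, and Ccl7, Ccl11, Ccl12 and Ccl8 met the filter only in treated cultures. It concerns treated levels, not the size of the change with IFN-β. For Ccl12 the vehicle level differed between the times by 1.67 on the log2 scale beside 1.68 with IFN-β, and the summed ratio of IFN-β to vehicle was 11.8 at 2 h and 10.9 at 14 h. Windows shared within 2 mismatches were at most 3.16% of a CDS for Ccl2, Ccl7 and Ccl12, and Ccl7 had none. Ccl11 and Ccl8 were searched only as partners of the followed genes, so their own shares were not measured.

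**Figure D4:**
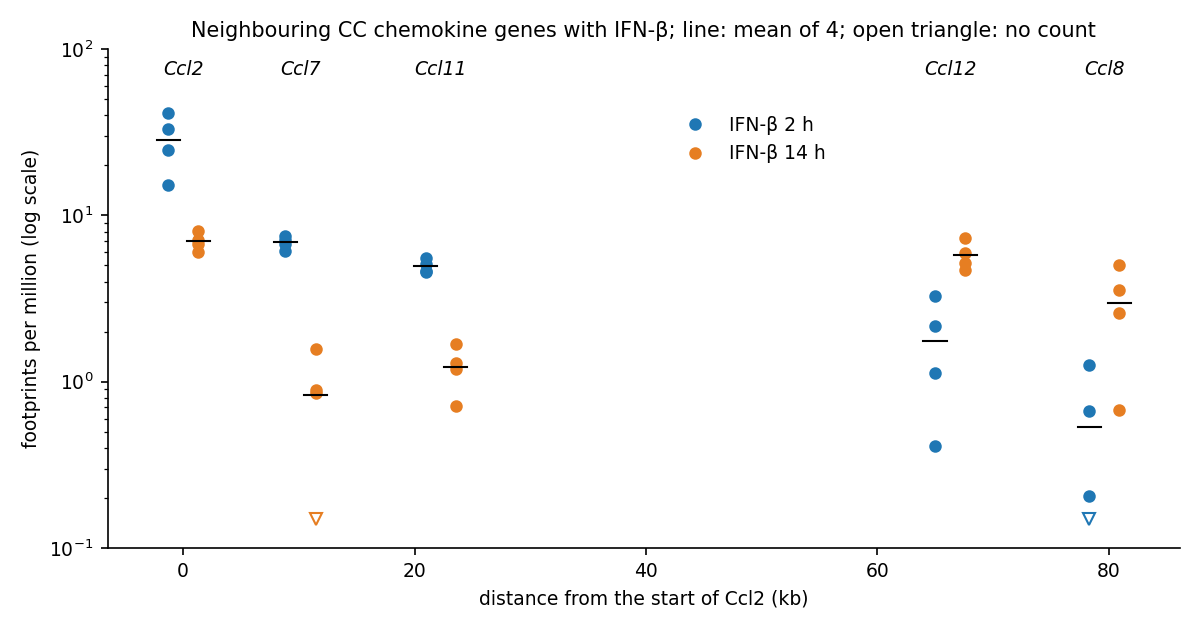
Footprint level (CPM, log axis) with IFN-β at 2 h and at 14 h of Ccl2, Ccl7, Ccl11, Ccl12 and Ccl8, placed by the distance of each gene's start from the start of Ccl2. Points are cultures, lines are means of 4 and open triangles are cultures without a count. By their means, Ccl2, Ccl7 and Ccl11 are higher at 2 h and Ccl12 and Ccl8 higher at 14 h.

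Of 28 other chemokine ligands, 11 had no footprint in any library and 7 reached 10 counts in a library. At 2 h, 4 of them were tested and Ccl11 was called higher, and at 14 h 3 were tested and none was called. The receptors of the followed chemokines named here were close to absent from the footprints, while the scavengers Ackr3 and Ackr4, given below, were not. Ccr1, Ccr2, Ccr3, Cx3cr1 and Cxcr2 had no count in the 16 libraries, Cxcr6 had 1, Cxcr3 had 5 with no more than 2 in a library, and the scavenger receptors Ackr1 and Ackr2 had 5 and 1. A count of 0 limits the level to 3 counts over each group of 4 libraries, and lower levels were not detectable at this depth. In total RNA, where the strand setting was not given, Cx3cr1 had 95 to 3750 counts in a library and Cxcr6 0 to 87. Ccr2 had at most 2 there and Cxcr3 had 0.

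Among the 23 receptors, 2 were tested at 2 h and 3 at 14 h. Cxcr4, the receptor of Cxcl12 that guides and retains stem and progenitor cells, had 115, 79.6, 121 and 122 CPM with vehicle and 44.7, 29.6, 53.9 and 48 CPM with IFN-β at 2 h. At 14 h it had 59, 66.3, 60.9 and 92.1 CPM with vehicle and 97.1, 88.7, 87.5 and 116 CPM with IFN-β. Each treated culture was below the vehicle culture of its number at 2 h and above it at 14 h, and the groups overlapped only at 14 h. Its log2 change was -1.31 at 2 h (SE 0.19, adjusted p = 0.00287 in edgeR) and 0.47 at 14 h (SE 0.13, adjusted p = 0.0101), and the difference between the changes was 1.79 (SE 0.26, adjusted p = 8.79e-05).

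Ackr3, a scavenger of Cxcl12 and Cxcl11, had 29.1, 144, 38.4 and 44.8 CPM with vehicle and 7.08, 40.9, 15.4 and 15.8 CPM with IFN-β at 2 h. Culture 3 was the highest of both groups, so that the groups overlapped, while each treated culture was 0.243 to 0.4 times the vehicle culture of its number. The log2 change of Ackr3 at 2 h was -1.73 (SE 0.62, adjusted p = 0.174 in edgeR), and with the culture number as a block it was -1.67 (adjusted p = 4.54e-14). Without both cultures numbered 3 it was -1.57 (adjusted p = 0.000883). At 14 h its change was -0.08 (SE 0.13, adjusted p = 0.67), and the difference between the changes was 1.66 without the block (adjusted p = 0.104) and 1.60 with it (adjusted p = 1.74e-08). Ackr4, a scavenger of CC chemokines, had 5.38, 5.29, 3.22 and 4.47 CPM with vehicle and 3.02, 3.87, 1.93 and 2.68 CPM with IFN-β at 14 h. Its log2 change there was -0.68 (SE 0.24, adjusted p = 0.0291), a call lost without vehicle culture 1 or 2 or IFN-β culture 3 or 4 (adjusted p 0.0531 to 0.0979).

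The sheddases of Cx3cl1 and Cxcl16 were well translated in all groups. Adam10 had 399 ± 34 CPM with vehicle and 425 ± 14.9 with IFN-β at 2 h, and 341 ± 7.5 and 365 ± 8.76 at 14 h (SD, n = 4). Its log2 change was 0.09 at both times (adjusted p = 0.702 and 0.122 in edgeR), and with the culture number as a block the change at 14 h was called (adjusted p = 0.026). Adam17 changed by 0.11 on the log2 scale at 2 h (adjusted p = 0.634) and by -0.16 at 14 h (SE 0.06, adjusted p = 0.0291), a call lost in 6 of 8 fits that left out 1 library (adjusted p 0.0535 to 0.106). Dpp4, a protease that trims Cxcl10, had at most 1 footprint in a library.

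The genes whose footprint levels followed Cxcl10 most closely over the 16 libraries were known interferon-stimulated genes for the most part. By Pearson's r of log2(CPM + 0.5) among 10314 genes that averaged 50 counts or more, they were Ifit1 (0.985), Gbp2 (0.984), Clec2d (0.979), Irgm2 (0.977) and Parp14 (0.976). These values describe 16 libraries that share treatment, time and depth, and carry no test. Ifit1, which binds viral RNA, had means of 6.99 CPM with vehicle and 1020 with IFN-β at 2 h, and of 0.0737 and 640 at 14 h. Gbp2, a GTPase of the defence against intracellular microbes, had 30.4 and 1653 CPM at 2 h and 4.89 and 1179 at 14 h. In all 5 genes, as in Cxcl10, the vehicle mean was higher at 2 h than at 14 h. Picking genes by likeness to Cxcl10 over these same libraries favours such a shared pattern.

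In total RNA the chemokines were thinly covered. Among 1631 genes that averaged 1000 footprints or more, the median total RNA count per library was 3 to 55. Cxcl10 had 0, 0, 0 and 2 total RNA counts with vehicle and 56, 166, 72 and 17 with IFN-β at 2 h, and none with vehicle and 6, 1, 7 and 5 with IFN-β at 14 h. Treated cultures were above the vehicle cultures at both times, and the log2 change at 2 h was 6.77 (SE 1.51, adjusted p = 0.00149 in edgeR), a test entered only through the IFN-β cultures. Ccl2 had 0 to 4 counts in each total RNA library, Ccl7 at most 1 and Ccl12 none. At 2 h, 3 of the 10 genes were tested and Cxcl10 was called higher, beside 0.722% of 11639 genes. None of the 10 was tested at 14 h, where 3.47% of 7520 genes were called higher.

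More total RNA was counted for annotated genes on the other strand of the same loci. Art3, which overlaps Cxcl10 and shares 133 exonic bases with it, had 90, 68, 60 and 80 total RNA counts with vehicle and 20262, 62922, 27468 and 11973 with IFN-β at 2 h. At 14 h it had 49, 40, 10 and 34 with vehicle and 5568, 6638, 7030 and 4726 with IFN-β. Its log2 change in total RNA was 8.41 at 2 h (SE 0.45, adjusted p = 3.65e-05 in edgeR) and 7.04 at 14 h (SE 0.22, adjusted p = 1.27e-10), while its footprints at 2 h numbered 0 to 3 in vehicle cultures and 1 to 5 in treated ones. Gm17268, whose locus spans Ccl2 on the other strand with no shared exonic base, had 10.2 ± 6.34 CPM with vehicle and 61 ± 12.2 with IFN-β at 2 h, and 16.8 ± 5.35 and 16.1 ± 1.11 at 14 h. The log2 change of Gm17268 was 2.62 at 2 h (SE 0.44, adjusted p = 0.0176) and -0.11 at 14 h (SE 0.24, adjusted p = 0.849). Thus total RNA counted on Art3 was higher with IFN-β at both times, as were Cxcl10 footprints. That counted on Gm17268 was higher at 2 h and not called at 14 h, as were Ccl2 footprints. The strand setting of the counting was not given in the sources used here, so reads of a gene and of its partner on the other strand cannot be told apart.

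**Figure D5:**
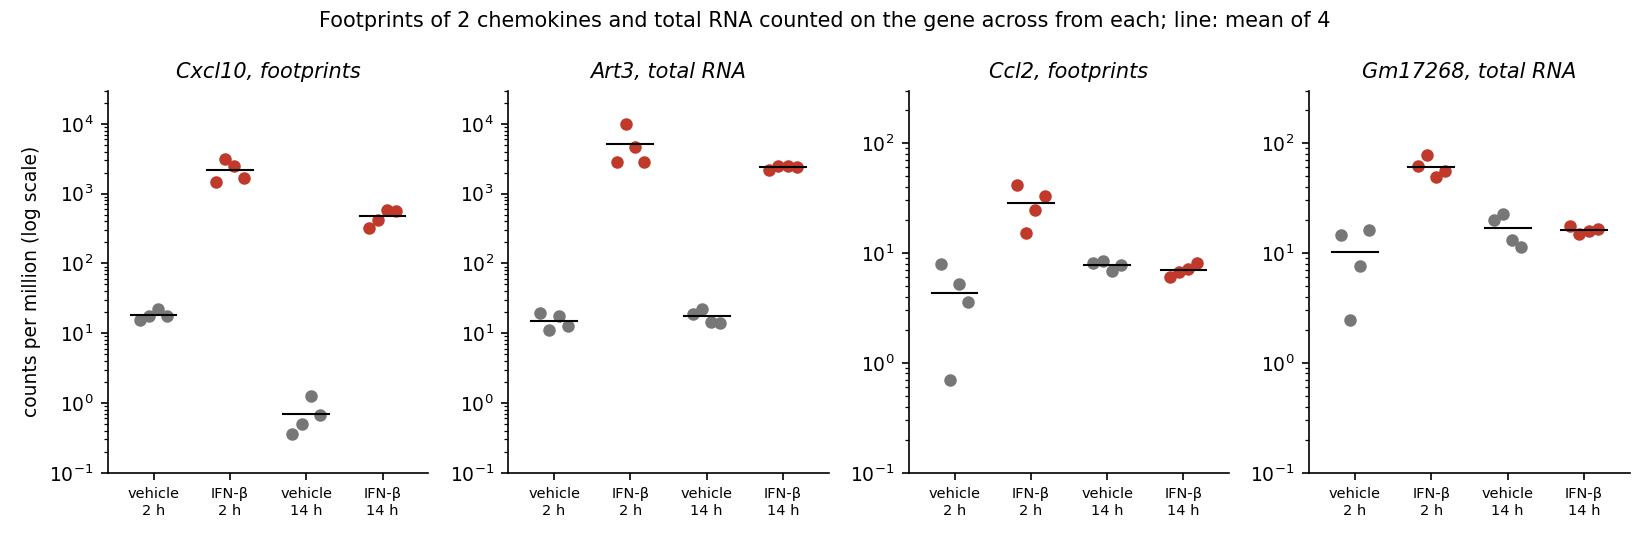
Cxcl10 footprints beside Art3 total RNA, and Ccl2 footprints beside Gm17268 total RNA, in CPM on log axes for the 4 groups. Points are cultures and lines are means. Total RNA counted on Art3 is higher with IFN-β at both times like Cxcl10 footprints. That counted on Gm17268 is higher with IFN-β at 2 h (61 against 10.2 CPM). At 14 h it is near the vehicle level (16.1 against 16.8 CPM) like Ccl2 footprints.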

How the data were processed

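Ribosome footprints and total RNA of cultured NSCs were measured in 32 libraries. The authors trimmed reads with Trim Galore 0.4.4 and mapped them with Bowtie 0.12.7 (versions and build mm10 from the submitters' processing notes), removed duplicates, and used SummarizeOverlaps (mode Union) to count CDS footprints and gene-body total RNA. The deposited values are raw counts, and 0 columns of per-sample values were left unused. Symbols were mapped to row IDs with GENCODE M21 (GRCm38), which matched 22205 of 23035 footprint and 37607 of 39017 total RNA IDs.

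Counts were tested with edgeR 4.0.16 (quasi-likelihood, TMM, two-sided) in R 4.3.3, with limma 3.58.1. Genes entered a fit when 4 or more of its libraries held 10 counts or more, p-values were adjusted by Benjamini-Hochberg over all genes tested, and calls were made under 0.05. SEs are Wald SEs. The difference between times was the time-by-treatment interaction, fitted to the 16 footprint libraries. Alternatives were DESeq2 1.42.0, total counts alone, no filter, a mean of at least 50 counts, the culture number as a block and leaving out single libraries. The fits were tested on simulated data. Counting intervals are exact at 95%, and the floor is 3 counts per group.

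Deviations from the group means correlated between footprint cultures of one number (r 0.63, 0.81, 0.33 and 0.53 at 2 h, 0.34, 0.22, 0.19 and 0.42 at 14 h), so the numbers pair these samples. In total RNA they did not in every pair.

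The 10 chemokines and all lists were chosen with earlier results of these data known. Named beside them, by rule, were other ligands or receptors that were called, receptors of the 10 (some items are not reported here), 3 proteases, genes on the other strand, and the 5 genes most like Cxcl10. Descriptions and plots were made with matplotlib 3.10.9, scipy 1.17.1, pandas 2.3.3 and numpy 2.4.6 under Python 3.11.15.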

Additional observations from a re-analysis of the deposited data

Results flagged for a closer look

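The effect of IFN-β on footprints differed between 2 h and 14 h for 4 of the 5 chemokines tested in edgeR's interaction of time and treatment. Of all 12508 genes tested, 15.4% were called with a higher and 15.5% with a lower change at 14 h. The log2 change at 14 h minus that at 2 h was 2.46 for Cxcl10, the Cxcr3 ligand, and 0.76 for Cx3cl1, the microglial ligand. It was -2.81 for Ccl2 and -2.60 for Ccl7, both monocyte chemokines, where Ccl7 entered the fit only through IFN-β cultures and had too few counts for a test at 14 h alone. The cultures at 2 h and 14 h are separate sets, so time and set cannot be told apart. In 20 groups of 4 libraries (Cxcl10, Ccl2, Ccl7, Ccl12 and Cx3cl1 in the 4 footprint groups) no library stood outside Dixon's 95% limit. With 4 libraries this limit finds only extreme values of a single gene. It does not bear on the 2 h cultures numbered 3, which stood apart over genes.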

How the results depend on the processing

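Of 469 values of single chemokines recomputed under the alternatives, 447 kept direction and call, 1 gained a call and 21 changed sign. Only chemokines tested in both the main fit and the alternative were counted, so calls lost or gained through the filter are not among them. The reversals were of differences near 0 that were not called. The difference of the changes of Ccl12 was -0.03 in DESeq2, 0.00 with the replicate block and -0.8 to 0.54 when single libraries were left out. The treated level of Cx3cl1 between times was -0.01 without a filter, -0.12 without replicate 3 at 2 h and -0.12 to 0.1 over the fits without 1 library, and its total RNA change at 2 h was -0.02 in DESeq2 and -0.36 to 0.58 without 1 library. With the replicate number as a block, 3538 genes were called at 2 h in place of 878 and 6944 for the difference between times in place of 3867, and no call on the 10 chemokines changed. The pairing by number rests on the footprint libraries, since in total RNA the correlation of same-numbered cultures ran from -0.48 to 0.39. Levels between times share no pairs and had no block. At 2 h, leaving out 1 library gave 517 to 953 genes, with the largest losses without IFN-β replicate 2 (563), 5 (517) or 6 (575), and leaving out replicate 3 of both groups, a choice made after seeing the data, gave 1671. Without a filter 4 of the 10 chemokines were called at 2 h, Ccl12 added, and 5 at 14 h, Cxcl9 and Cxcl16 added, in place of 3 at each time. Over all genes, 892 were then called at 2 h and 6481 at 14 h, in place of 878 and 6361. Each added gene had at most 3 footprints in a vehicle library of that time. Under the stricter filter (mean of 50 counts or more) 2 of the chemokines were called at each time, beside 715 and 5776 genes. For the treated level between times 2 were called in place of 4, beside 5371 genes in place of 6299. Ccl7 and Ccl11 at 2 h and Ccl12 at 14 h could not be tested when an IFN-β library was left out, since the filter needs 4 libraries.

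Total RNA depended more on the settings. At 2 h, 93 genes were called, 169 in DESeq2, 174 without a filter, 44 under the stricter filter and 30 to 74 without 1 library (57 without vehicle replicate 5, and 30, 33 and 40 without IFN-β replicate 2, 5 and 6). The number of the chemokines called there was 1, or 0 under the stricter filter, and 0 to 1 without 1 library, 0 when an IFN-β library was missing. At 14 h, 474 genes were called, 269 with total counts alone, 247 under the stricter filter and 171 to 450 without 1 library (171, 213, 271 and 265 without IFN-β replicate 1, 2, 3 and 4). Without a filter 694 genes were called there, 1 of the chemokines among them. The share of calls that were higher was 90.3% at 2 h, 79.3% in DESeq2 and 79.8% with total counts alone, and at 14 h 55.1% and 65.8% with total counts alone. The cause of these dependences was not tested. In footprints, Cxcl9, Cxcl11, Ccl5, Cxcl1 and Cxcl16 had too few counts for the main tests and are given as counts, floors or intervals.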
